A study of Mus musculus with 18 samples.

Results

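The cytochrome P450 enzymes of families 1 to 4 were examined in livers of control and hypothyroid juvenile mice. Members were all array probes whose gene symbol begins with Cyp, followed by a family number from 1 to 4, a subfamily letter and a gene number. This gave 76 probes of 56 genes, among 41174 probes of which 23374 could be named, for 16535 genes. In the RefSeq annotation 113 gene symbols have this form. The animals were C57BL/6 pups on PND 15. They were male and each came from a different litter, according to the study's methods. In the hypothyroid group the dams received MMI (0.05%) and perchlorate (1%) in sugar water from PND 12, and control dams received sugar water (1%) alone. According to the methods, pups of both groups had an injection of PBS before sacrifice. Effects of the chemicals themselves and of low thyroid hormone cannot be told apart in this design. Liver RNA of 5 control and 5 hypothyroid pups was hybridised on 10 2-colour arrays on 6 slides, each against the same purchased universal mouse reference RNA, and 4 slides held both groups. Values are log2 ratios of liver over reference signal, and arrays are named by the animal numbers of the labels. Ratios of different probes are not levels that can be set against each other.

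P450 enzymes are heme proteins of the endoplasmic reticulum that insert an oxygen atom into fat-soluble molecules, with electrons passed on by P450 oxidoreductase and cytochrome b5. Families 1 to 3 are known for the metabolism of drugs, toxins and steroids, and family 4 for the hydroxylation of fatty acids. Many of the genes are induced through the aryl hydrocarbon receptor, CAR, PXR or PPARα, and several are expressed mainly in males or mainly in females in adult mouse liver. Thyroid hormone is known to affect hepatic P450 activity, in part through P450 oxidoreductase.

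Certain arrays bear on all results. The ratios of slide 141 (control 832 and hypothyroid 576) had the reverse sign, correlating at -0.972 and -0.977 with the remaining arrays, and its channels were exchanged for all results below. Control 616 stood apart, with a correlation of 0.880 with the other arrays, where the others had 0.974 to 0.987. Its P450 ratio was the lowest of all 10 arrays at 58 of its 68 probes with a value, and its median shift from the mean of the other 4 controls was -1.32. The median shifts were -0.12 to 0.11 in those 4 controls and 0.028 to 0.15 in hypothyroid livers. Each of those 4 controls is part of the mean it was set against, which draws its shift toward 0. Results are therefore given with and without this array. Hepatocyte markers, 12 of which were tested, had a mean ratio of 4.66 to 5.34 in 4 controls, 2.67 in control 616 and 4.76 to 5.42 in hypothyroid livers. Exocrine pancreas markers (17 tested) had a mean ratio of 3.90, 4.01 and 2.37 in controls 832, 522 and 616, but 0.68 and 0.63 in the other 2 controls and 0.56 to 0.68 in hypothyroid livers. Fewer cells of a type and less RNA per cell cannot be told apart in RNA of whole liver. P-values measure the spread between these animals, and the number of arrays limits their precision.

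By the ratio of liver over reference no P450 probe passed the test. Of the 76 probes, 70 probes of 54 genes were above the background limit and were tested with limma among 32057 probes in all, whereas Cyp1a1 and Cyp2c38 had no probe above it. At an adjusted p below 0.05, 0 of 70 P450 probes were called with all arrays, where 2 of all probes (0.00624%) were. Without control 616 it was also 0, where 30 of all probes (0.0936%) were called. At an unadjusted p below 0.05, 4 of 70 (5.71%, against 3.34% of all probes) were higher in hypothyroid liver and 1 of 70 (1.43%, against 4.08% of all probes) was lower. Without control 616, 4 of 70 (5.71%, against 3.43% of all probes) were higher and 4 of 70 (5.71%, against 3.92% of all probes) lower. The count of higher probes also moved with other arrays, to 9 without control 522, 7 without control 391, 2 without hypothyroid 723 and 2 without hypothyroid 626. It was 1 with the scanner's processed signals and 15 without the 3 controls of high pancreas markers. The share of all probes at that p was not computed for these fits. Their counts therefore show only how far the number moved. Groups did not overlap in 2 of 70 (2.86%, against 1.07% of all probes) that were higher, and in 0 of 70 (0%, against 1.00% of all probes) that were lower. Without control 616 the same was seen in 2 of 70 (2.86%, against 1.49% of all probes) that were higher and 1 of 70 (1.43%, against 1.41% of all probes) that were lower.

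The median over genes depended on control 616. With the brightest tested probe of each gene, the median difference (hypothyroid minus control) of the 54 genes was 0.36 with all arrays, and 45 genes lay above 0. Without control 616 the median was 0.095, with 42 genes above 0, beside a median over all tested probes of -0.0016. Of all 32057 tested probes, 14823 lay above 0 with all arrays and 15796 without control 616. The 12 tested hepatocyte markers all lay above 0 in both fits. By family, the medians without control 616 were 0.0046 for 2 genes of family 1, 0.11 for 33 of family 2, 0.14 for 6 of family 3 and 0.066 for 13 of family 4. Within slides 139, 141 and 136 the median difference of the genes was 0.12, 0.045 and 0.054, and within slide 100, which held control 616, it was 1.39. The plot of group differences of all genes shows this shift. With all arrays the largest differences were those of Cyp2e1, Cyp2c55 and Cyp3a41a, at 0.81, 0.76 and 0.75, and the last of these was 0.16 without control 616.

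**Figure D1:**
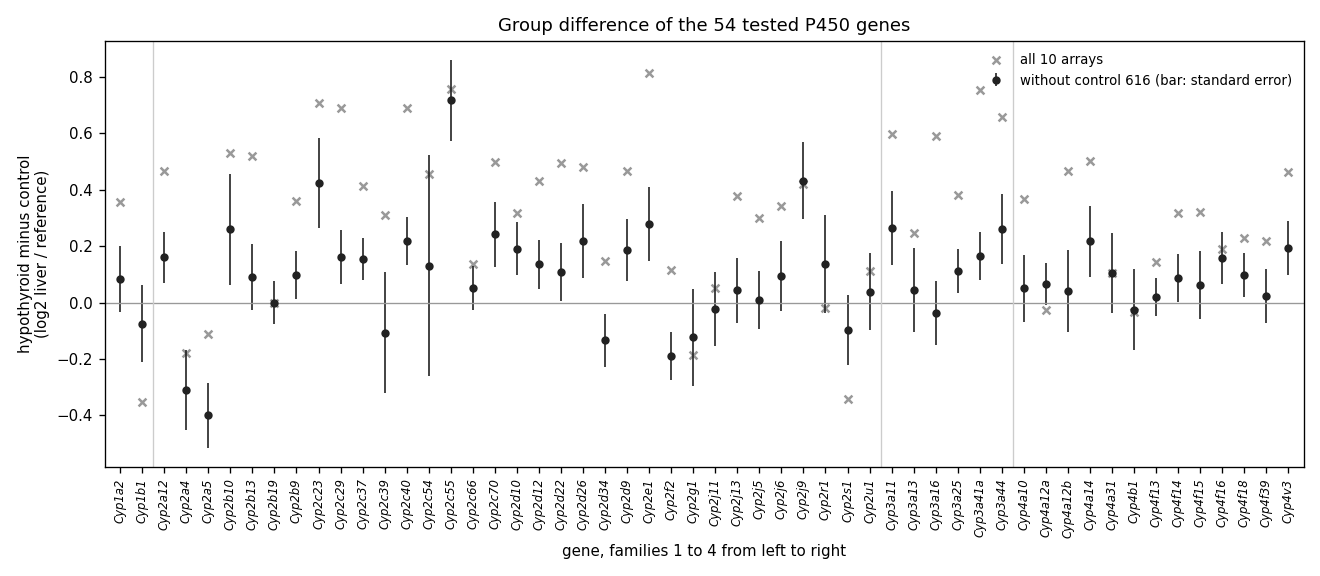
Difference between hypothyroid and control livers (log2 liver over reference, vertical axis) at the brightest tested probe of each of 54 P450 genes, ordered by family, where crosses are all 10 arrays and filled points leave out control 616, with bars for the limma standard error. Most crosses lie above 0 and most filled points lie closer to 0, while Cyp2c55 is at 0.76 and 0.72.

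Family 1 holds the classic targets of the aryl hydrocarbon receptor. Cyp1a1, which oxidises polycyclic aromatic hydrocarbons, was not above the background limit, and its ratios were -0.085 to 0.074 in 4 controls, 0.015 in control 616 and -0.11 to 0.14 in hypothyroid livers. The brighter probe of Cyp1a2, a hepatocyte enzyme that metabolises caffeine, had ratios of 3.35, 3.36, 3.85 and 3.33 in controls 881, 832, 522 and 391, and 2.12 in control 616. In hypothyroid livers 891, 576, 311, 723 and 626 they were 3.50, 3.33, 3.68, 3.63 and 3.65, and arrays are listed in this order from here on. All hypothyroid values lay at or among those of the 4 controls. The difference was 0.36 with all arrays (limma standard error 0.26, adjusted p = 0.757) and 0.085 without control 616 (adjusted p = 0.953). Cyp1b1, known mainly from cells other than hepatocytes, had ratios of -2.47 to -1.77 in 4 controls, -0.87 in control 616 and -2.50 to -2.15 in hypothyroid livers. Control 616 was the highest array here, and the difference was -0.35 with it and -0.076 without it (limma adjusted p = 0.966).

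The Cyp2c subfamily holds enzymes that oxidise drugs, arachidonic acid and retinoids. Of its tested genes, 9 of 9 lay above 0 with all arrays and 8 without control 616. Among all 32057 probes, 14823 and 15796 did so. The median difference of the Cyp2c genes was 0.16 without control 616. The smallest p of any P450 ratio was that of Cyp2c55, a gene known to be induced through CAR and PXR. Its ratios were 0.64, 0.26, 0.38 and 0.24 in the 4 controls and 0.18 in control 616, and 0.93, 0.95, 1.28, 0.81 and 1.52 in hypothyroid livers. Every hypothyroid value was above every control value, and control 881 was the control nearest to them. The difference was 0.76 (limma standard error 0.14, unadjusted p = 0.000228, adjusted p = 0.148), a 1.69-fold difference, and 0.72 without control 616 (adjusted p = 0.108). Within slides 139, 141, 136 and 100 it was 0.29, 0.68, 0.90 and 1.34.

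Cyp2c23, an arachidonic acid epoxygenase, did not overlap between groups either. Its ratios were 5.41, 5.15, 4.46 and 5.29 in the 4 controls, 3.66 in control 616 and 5.50, 5.44, 5.44, 5.66 and 5.47 in hypothyroid livers. The hypothyroid values were close together and just above the highest control, whereas the controls were widely spread. The difference was 0.71 (limma adjusted p = 0.645) and 0.42 without control 616 (adjusted p = 0.552). Cyp2c40 had a difference of 0.69 with all arrays and 0.22 without control 616 (limma unadjusted p = 0.0275, adjusted p = 0.586). Without control 616 the remaining genes differed by 0.24 (Cyp2c70), 0.16 (Cyp2c29), 0.15 (Cyp2c37), 0.13 (Cyp2c54), 0.051 (Cyp2c66) and -0.11 (Cyp2c39). The reference signal of Cyp2c54 was well above background on 1 of the 10 arrays, so its ratio is set against a reference near background. Cyp2c29 showed how far control 616 stood apart, with a ratio of 2.67 where the other controls had 5.07 to 5.53 and hypothyroid livers 5.33 to 5.59.

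**Figure D2:**
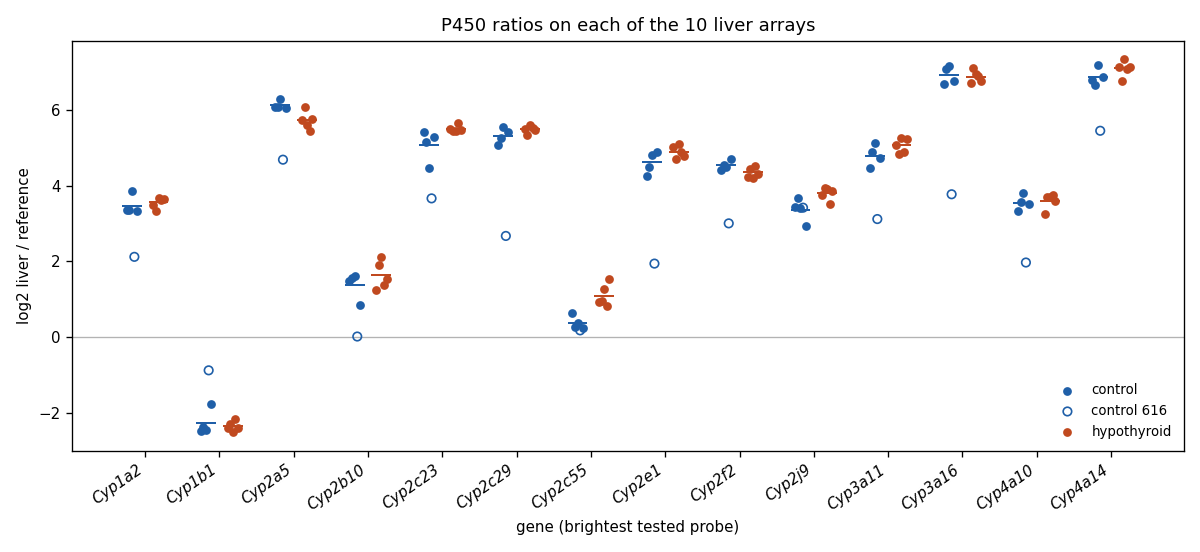
Ratio of liver over reference (log2, vertical axis) at the brightest tested probe of 14 P450 genes on each of the 10 arrays, with controls in blue, control 616 as an open circle and hypothyroid livers in orange, and short lines at the group means without control 616. Control 616 lies far below its group in Cyp2c29, Cyp2e1 and Cyp3a16, above it in Cyp1b1 and among the other controls in Cyp2j9, and the groups do not overlap in Cyp2c55.

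Cyp2e1, the ethanol-inducible enzyme of pericentral hepatocytes, had the largest difference with all arrays, 0.81 (limma standard error 0.47, adjusted p = 0.728). Its ratios were 4.26, 4.50, 4.81 and 4.88 in the 4 controls, 1.94 in control 616 and 5.003, 4.69, 5.10, 4.87 and 4.79 in hypothyroid livers. The groups overlapped, and without control 616 the difference was 0.28 (limma adjusted p = 0.690). Cyp2b10, widely used as a marker of CAR activity, had ratios of 0.84 to 1.62 in 4 controls, 0.020 in control 616 and 1.25 to 2.11 in hypothyroid livers, with a difference of 0.53 with and 0.26 without control 616 (limma adjusted p = 0.865). Its reference signal was well above background on 3 arrays. Cyp2b9 and Cyp2b13, close copies of each other, differed by 0.097 and 0.091 without control 616. The 10 tested P450 genes known as CAR or PXR targets had a median difference of 0.14 without control 616.

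Cyp2j9, an arachidonic acid epoxygenase described in brain, depended little on control 616. Its ratios were 3.44, 3.66, 3.41 and 2.94 in the 4 controls, 3.42 in control 616 and 3.74, 3.94, 3.92, 3.51 and 3.86 in hypothyroid livers. Hypothyroid 723 was the one hypothyroid value inside the control range. The difference was 0.42 (limma unadjusted p = 0.00787, adjusted p = 0.492) and 0.43 without control 616 (adjusted p = 0.407), and within slides it was 0.30, 0.28, 0.51 and 0.44. Cyp2j5, the main epoxygenase of its subfamily in liver and kidney, differed by 0.30 with and 0.0099 without control 616, and Cyp2j6 by 0.34 and 0.094. In the Cyp2d subfamily, a large drug-metabolising group, 6 of 6 genes lay above 0 with all arrays and 5 without control 616. Their medians were 0.45 and 0.16, and 14823 and 15796 of all 32057 probes lay above 0 in these fits. Without control 616 Cyp2d26 differed by 0.22, Cyp2d10 by 0.19, Cyp2d9 by 0.19, Cyp2d12 by 0.14, Cyp2d22 by 0.11 and Cyp2d34 by -0.13. Cyp2r1, a vitamin D 25-hydroxylase, differed by -0.019 with and 0.14 without control 616, and Cyp2s1, Cyp2u1 and Cyp2g1 by -0.098, 0.039 and -0.12 without it. The reference signal of Cyp2r1 was well above background on 2 of the 10 arrays, so its ratio is set against a reference near background. That of Cyp2j9 and that of Cyp2g1 were well above it on 8 and 8 arrays.

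In family 3, Cyp3a11, the classic PXR target in mouse liver, had ratios of 4.45, 4.87, 5.12 and 4.73 in the 4 controls, 3.12 in control 616 and 5.07, 4.84, 5.25, 4.90 and 5.23 in hypothyroid livers. The groups overlapped, and the difference was 0.60 with all arrays (limma adjusted p = 0.712) and 0.26 without control 616 (adjusted p = 0.727). Without control 616 Cyp3a13 differed by 0.044, Cyp3a25 by 0.11 and Cyp3a41a by 0.16. Cyp3a16, known as a fetal and neonatal form, had ratios of 6.66 to 7.15 in 4 controls, 3.77 in control 616 and 6.71 to 7.09 in hypothyroid livers, with a difference of 0.59 with and -0.038 without control 616. Among 8 tested genes known as female-biased in adult liver the median difference was 0.13 without control 616, and among 4 male-biased genes it was 0.13.

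In family 4, the fatty acid hydroxylases Cyp4a10, Cyp4a14 and Cyp4a31, known as PPARα targets, differed by 0.051, 0.22 and 0.11 without control 616. At an unadjusted p below 0.05 there were 0 of 3, where 3.43% of all probes were higher and 3.92% lower. With 3 genes this count cannot be told apart from these shares. Cyp4a12a and Cyp4a12b, male-biased in adult liver, differed by 0.066 and 0.042, and Cyp4b1 by -0.025. The Cyp4f genes, which act on leukotrienes and long-chain fatty acids, were all above 0 in both fits. Among all 32057 probes, 14823 were above 0 with all arrays and 15796 without control 616. Without control 616 the Cyp4f genes ranged from 0.019 to 0.16, with Cyp4f14 at 0.086 and Cyp4f16 at 0.16. Cyp4v3 differed by 0.19. The lowest limma adjusted p of the family without control 616 was 0.729, for Cyp4v3.

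The tested probes of Cyp3a44, known as female-biased in adult liver, lay in opposite directions by the loess ratio. In the liver channel alone, described below, both were below 0 without control 616. The brighter probe differed by 0.66, or 0.26 without control 616 (limma adjusted p = 0.696). The dimmer probe had ratios of 6.03, 5.94, 5.76 and 5.27 in the 4 controls, 5.36 in control 616 and 5.40, 4.78, 3.90, 4.79 and 4.03 in hypothyroid livers. All hypothyroid values other than that of animal 891 were below every control. The difference was -1.09 (limma unadjusted p = 0.00211, adjusted p = 0.321) and -1.17 without control 616 (adjusted p = 0.185). Within the slides it was -0.63, -1.16, -1.86 and -1.33. With the scanner's processed signals in place of the loess ratios the dimmer probe differed by 0.20. Its reference signal was well above background on 8 arrays. Genes within a subfamily are close in sequence, probe sequences were not analysed here, and signal shared with Cyp3a41a, Cyp3a16 or other close copies cannot be told apart from that of Cyp3a44. The same holds for Cyp2a4 with Cyp2a5 and for genes within Cyp2b, Cyp2c, Cyp2d and Cyp4a.

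By the loess ratio Cyp2a5 and Cyp2a4 lay below 0. Cyp2a5, which oxidises coumarin and nicotine, had ratios of 6.08, 6.06, 6.28 and 6.04 in the 4 controls, 4.68 in control 616 and 5.72, 6.07, 5.60, 5.43 and 5.76 in hypothyroid livers. Apart from control 616, the controls were above all hypothyroid livers but animal 576. The difference was -0.11 with all arrays and -0.40 without control 616 (limma unadjusted p = 0.00486, adjusted p = 0.331). With the scanner's processed signals it was 0.51 with all arrays and 0.12 without control 616. The 3 probes of Cyp2a4, its close copy that hydroxylates testosterone, differed by -0.27, -0.31 and -0.49 without control 616. The last of these did not overlap between groups then (limma unadjusted p = 0.00125, adjusted p = 0.185). With the scanner's processed signals the brightest of them differed by 0.26 with all arrays and 0.079 without control 616. Cyp2a12, the remaining gene of the subfamily, differed by 0.16.

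Cyp2f2, which oxidises naphthalene and is known from periportal hepatocytes and airway club cells, had ratios of 4.42, 4.53, 4.49 and 4.69 in the 4 controls, 3.003 in control 616 and 4.23, 4.44, 4.21, 4.52 and 4.31 in hypothyroid livers. Its difference was 0.12 with all arrays and -0.19 without control 616 (limma unadjusted p = 0.0492, adjusted p = 0.676). The ratio is the difference of both channels on the log2 scale, and at this gene both were lower on hypothyroid arrays. Each channel was tested alone with limma after the arrays were made equal in mean brightness (Aquantile), a test chosen after seeing the data. In the liver channel Cyp2f2 read 13.93, 13.90, 13.46 and 13.79 in the 4 controls, 12.91 in control 616 and 12.57, 12.91, 12.60, 12.75 and 12.69 in hypothyroid livers, in log2 intensity. Every hypothyroid value was below every control, with control 616 and hypothyroid 576 nearly equal. The liver channel signal of Cyp2f2 differed by -1.07 without control 616 (limma standard error 0.11, adjusted p = 0.0132). With all arrays the difference was -0.89 (limma adjusted p = 0.231). Within slides 139, 141, 136 and 100 it was -1.37, -0.99, -0.86 and -0.22.

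The call for Cyp2f2 was lost in further settings too. With the scanner's processed liver signal, scaled at the 75th percentile and without control 616, the difference was -1.09 (limma adjusted p = 0.0579). The processed reference signal, scaled in the same way, differed by -0.99 without control 616 (limma adjusted p = 0.428). With all arrays the processed liver and reference signals differed by -0.99 and -1.22. With the 3 controls of high pancreas markers left out the liver channel difference was -1.15 (limma adjusted p = 0.0915). Controls 881 and 391, with low pancreas markers, read 13.93 and 13.79 for Cyp2f2, beside 13.90 and 13.46 in controls 832 and 522. In the liver channel without control 616 Cyp2f2 was the 1 of 70 (1.43%, against 0.0749% of all probes) called at an adjusted p below 0.05. With all arrays it was 0 of 70 (0%, against 0.00312% of all probes).

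The reference RNA was the same on all arrays, yet its signal at this probe differed. It was 9.51, 9.37, 8.97 and 9.09 in the 4 controls, 9.91 in control 616 and 8.33, 8.47, 8.39, 8.23 and 8.38 beside hypothyroid livers, in log2 intensity, without overlap. The difference was -0.88 without control 616 (limma unadjusted p = 6.88e-06, adjusted p = 0.221). Without control 616 the reference channel was lower at an unadjusted p below 0.05 in 9 of 70 (12.9%, against 0.693% of all probes) and higher in 0 of 70 (0%, against 0.799% of all probes). With all arrays it was lower in 7 of 70 (10%, against 0.543% of all probes) and higher in 0 of 70 (0%, against 0.911% of all probes). At an adjusted p below 0.05 it was 0 of 70 (0%, against 0% of all probes) without control 616 and 0 of 70 (0%, against 0% of all probes) with all arrays. The 9 lower probes were those of Cyp1a2 (2 probes), Cyp2a4, Cyp2a5, Cyp2c40, Cyp2c70, Cyp2f2 and Cyp3a44 (2 probes), with reference differences of -0.88 to -0.19. The liver channel was below 0 at all 9 of these probes. At 6 of them it was lower at an unadjusted p below 0.05, against 3.29% of all probes. These probes were picked for a low reference channel, which shares its mean brightness with the liver channel, so this count is not independent of the choice. The scanner's processed reference signal comes from the same spots by which these genes were picked, so it is not separate support. Scaled as above and without control 616, it was below 0 for these genes. At their brightest tested probes it differed by -1.27 (Cyp2a5), -1.02 (Cyp2a4), -0.99 (Cyp2f2), -0.54 (Cyp2c70), -0.40 (Cyp3a44), -0.29 (Cyp1a2) and -0.17 (Cyp2c40). At the dimmer Cyp3a44 probe it differed by -1.85. Named genes that were not picked lay on both sides of 0, such as Cyp2j5 (-0.30), Cyp3a16 (-0.28) and Cyp4a12a (0.32). The lowest limma adjusted p among these was 0.428, for Cyp2f2. Both channels are computed from one mean brightness and one ratio per spot, and the part of this in the liver differences was not tested.

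**Figure D3:**
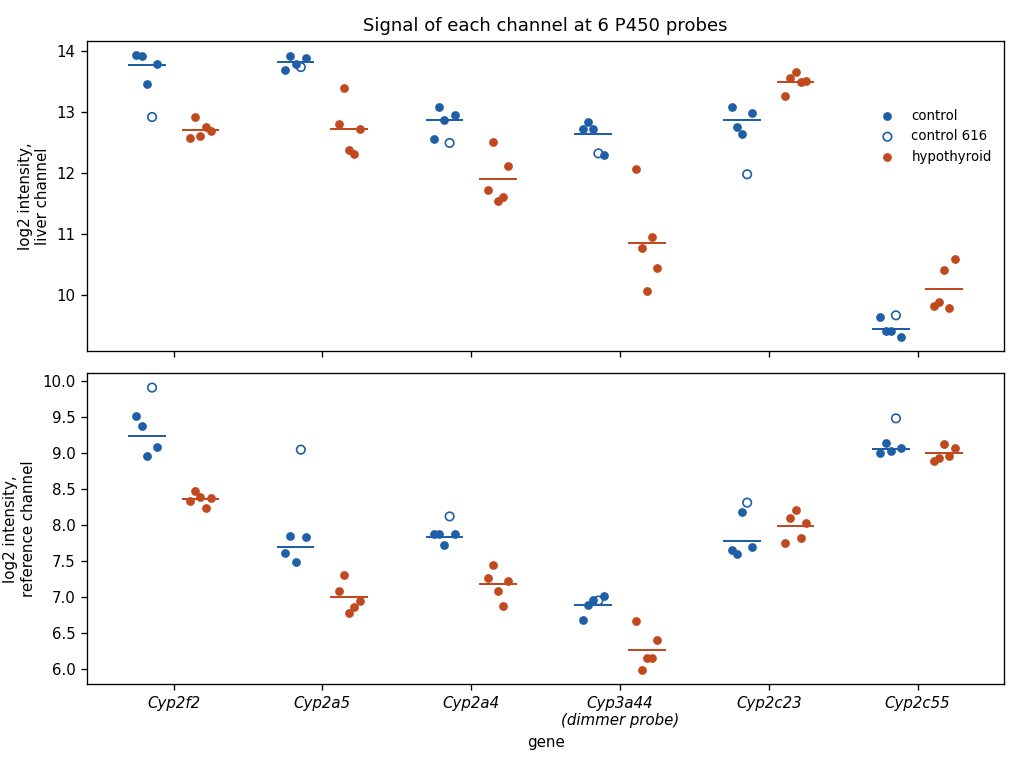
Log2 intensity of the liver channel (upper panel) and of the reference channel (lower panel) on each of the 10 arrays at 6 P450 probes, with controls in blue, control 616 as an open circle and hypothyroid livers in orange, and short lines at the group means without control 616. At Cyp2f2, Cyp2a5, Cyp2a4 and the dimmer Cyp3a44 probe the means of both channels are lower on hypothyroid arrays, whereas at Cyp2c55 the liver channel differs by 0.66 and the reference channel by -0.062.

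In the liver channel Cyp2a5 read 13.69, 13.92, 13.78 and 13.89 in the 4 controls, 13.73 in control 616 and 12.80, 13.39, 12.38, 12.30 and 12.71 in hypothyroid livers. Control 616 lay with the other controls here, and no value overlapped between groups. The difference was -1.08 with all arrays (limma adjusted p = 0.148) and -1.10 without control 616 (adjusted p = 0.0888), beside -0.70 in the reference channel. Without control 616 the brightest Cyp2a4 probe differed by -0.97 (limma adjusted p = 0.139) and the dimmer Cyp3a44 probe by -1.79 (adjusted p = 0.104), beside -0.66 and -0.61 in the reference channel. In the other direction, Cyp2c23 differed by 0.62 in the liver channel (limma adjusted p = 0.0888) and 0.20 in the reference. Cyp2c55 differed by 0.66 in the liver channel (limma adjusted p = 0.316) and -0.062 in the reference.

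At an unadjusted p below 0.05 and without control 616, 10 of 70 (14.3%, against 3.69% of all probes) were higher in the liver channel and 9 of 70 (12.9%, against 3.29% of all probes) were lower. The higher probes were of Cyp2c23, Cyp2c55, Cyp2d9 (2 probes), Cyp2d10, Cyp2d12, Cyp2d26, Cyp2j9, Cyp4a14 and Cyp4v3. The lower probes were of Cyp1a2, Cyp2a4 (3 probes), Cyp2a5, Cyp2c70, Cyp2f2, Cyp3a44 and Cyp4a31. With all arrays 5 of 70 (7.14%, against 3.11% of all probes) were higher and 4 of 70 (5.71%, against 2.48% of all probes) were lower. Probes of close copies are not independent of each other. The plot of both channels over the 70 probes shows where the liver difference was matched by one in the reference.

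**Figure D4:**
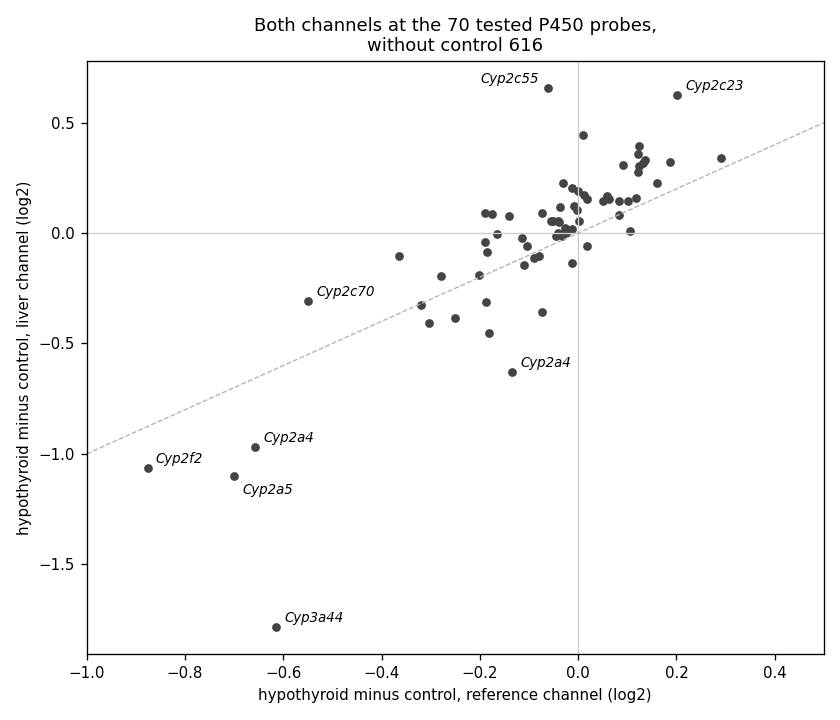
Difference between hypothyroid and control arrays without control 616 in the reference channel (horizontal axis, log2) and in the liver channel (vertical axis, log2) at each of the 70 tested P450 probes, with a dashed line where both differences are equal and the ratio does not differ. Cyp2f2 lies near the line at -1.07 in the liver channel, the dimmer Cyp3a44 probe lies below it at -1.79 and Cyp2c55 lies above it at 0.66. Values are those of the loess-normalised signals, and the scanner's processed signals are not plotted.

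The genes with the largest liver channel differences lie in clusters of P450 genes, as do most P450 genes on the array. On chromosome 7, the genes of the cluster that were tested follow each other in the order Cyp2s1, Cyp2b10, Cyp2b13, Cyp2b9, Cyp2a4, Cyp2b19, Cyp2g1, Cyp2a5, Cyp2a12 and Cyp2f2. In the liver channel without control 616, Cyp2a4, Cyp2a5 and Cyp2f2 had the differences given above, while Cyp2b10 differed by 0.23, Cyp2b13 by 0.15, Cyp2b9 by -0.088, Cyp2b19 by 0.083, Cyp2g1 by -0.31 and Cyp2a12 by -0.0057. The upstream sequences of the genes on which these results turn are shown so that close copies can be compared. Each is the 250 bases before the RefSeq gene start on GRCm38.p6, written 5′ to 3′ on the strand of the gene. Capitals mark AGGTCA, the core motif of nuclear receptor sites including those of the thyroid hormone receptor, and TATAAA, the TATA box motif. Both are marked wherever they occur on either strand, whatever their distance from the start. They lie at chr7:27119705-27119954 (plus strand) for Cyp2f2, chr7:26835089-26835338 (plus strand) for Cyp2a5, chr7:26306942-26307191 (plus strand) for Cyp2a4, chr19:39006769-39007018 (plus strand) for Cyp2c55 and chr5:145805875-145806124 (minus strand) for Cyp3a44.
Cyp2f2: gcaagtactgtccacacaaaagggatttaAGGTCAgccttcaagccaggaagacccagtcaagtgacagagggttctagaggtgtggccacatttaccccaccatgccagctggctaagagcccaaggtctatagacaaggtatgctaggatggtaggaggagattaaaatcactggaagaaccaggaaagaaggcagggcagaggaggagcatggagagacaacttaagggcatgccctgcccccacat
Cyp2a5: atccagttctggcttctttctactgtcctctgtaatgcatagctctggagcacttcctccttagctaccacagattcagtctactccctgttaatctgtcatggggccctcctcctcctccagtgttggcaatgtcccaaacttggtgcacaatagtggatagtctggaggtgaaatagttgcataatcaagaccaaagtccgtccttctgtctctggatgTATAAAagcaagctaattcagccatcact
Cyp2a4: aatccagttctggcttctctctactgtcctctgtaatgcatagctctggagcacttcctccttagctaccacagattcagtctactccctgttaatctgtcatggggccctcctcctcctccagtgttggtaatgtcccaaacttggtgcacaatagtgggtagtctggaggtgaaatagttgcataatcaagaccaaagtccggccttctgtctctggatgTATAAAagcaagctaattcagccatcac
Cyp2c55: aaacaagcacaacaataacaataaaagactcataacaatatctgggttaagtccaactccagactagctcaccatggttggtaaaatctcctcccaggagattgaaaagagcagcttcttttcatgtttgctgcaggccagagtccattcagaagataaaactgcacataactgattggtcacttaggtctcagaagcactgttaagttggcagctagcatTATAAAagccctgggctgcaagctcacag
Cyp3a44: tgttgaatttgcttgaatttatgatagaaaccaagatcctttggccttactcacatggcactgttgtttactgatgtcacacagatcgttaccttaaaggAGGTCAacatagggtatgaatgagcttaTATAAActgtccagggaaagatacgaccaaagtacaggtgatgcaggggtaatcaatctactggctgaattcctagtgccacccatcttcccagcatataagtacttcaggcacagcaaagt

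The stretches of Cyp2a4 and Cyp2a5 were identical at 245 of 249 aligned bases (98.4%). That of Cyp3a44 matched that of Cyp3a41a at 94.4% and that of Cyp3a16 at 95.9% of aligned bases. A promoter was found for 44 of the 56 P450 genes, 50 promoters in all. AGGTCA, searched on both strands, was present in 12 of these (24%), against 14% of 32851 promoters of the same length. It lay 221 bases before the start in Cyp2f2 and 150 in Cyp3a44. TATAAA was present in 19 P450 promoters (38%), against 12.4% of all, and lay 29, 28 and 29 bases before the start in Cyp2a5, Cyp2a4 and Cyp2c55. In Cyp3a44 the match lay 122 bases before the start. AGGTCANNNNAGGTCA, a spaced pair bound by the thyroid hormone receptor with RXR, was in 0 P450 promoters and 0.0152% of all. AGGTCANAGGTCA, a pair bound by PPARα with RXR and by HNF4α, was in 0 and 0.0335%. Each pair holds the single motif as well, and the search covered only these windows.

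Partners and regulators of the enzymes were examined as lists, for which the background at an unadjusted p below 0.05 without control 616 is that 3.43% of all probes were higher and 3.92% lower. Of 5 electron transfer partners, P450 oxidoreductase (Por) had ratios of 1.51 to 2.25 in 4 controls, 1.27 in control 616 and 1.41 to 1.85 in hypothyroid livers, a difference of -0.14 with and -0.24 without control 616 (limma adjusted p = 0.811). Cytochrome b5 (Cyb5a) had ratios of 3.49 to 3.67 in 4 controls, 2.56 in control 616 and 3.73 to 4.13 in hypothyroid livers, without overlap. Its difference was 0.59 with and 0.39 without control 616 (limma unadjusted p = 0.000839, adjusted p = 0.165), and it was the 1 partner at an unadjusted p below 0.05. The median over the partners was 0.096 without control 616. Of 12 genes of heme synthesis and turnover, with a median of 0.023, Blvrb (biliverdin reductase) was higher and Hmox2 (heme oxygenase) lower at an unadjusted p below 0.05, at 0.23 and -0.24. Alas1, the rate-limiting enzyme of hepatic heme synthesis, differed by 0.16 (limma adjusted p = 0.778).

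Of 14 nuclear receptors and factors known to drive P450 genes, 0 were higher and 2 lower at an unadjusted p below 0.05, around a median of 0.043 without control 616, where 3.43% of all probes were higher and 3.92% lower. The lower genes were Cebpb, at -1.09 (limma unadjusted p = 0.00538, adjusted p = 0.341), and Stat5b, which carries the growth hormone signal to sex-biased P450 genes, at -0.42 (adjusted p = 0.489). PXR (Nr1i2) differed by 0.15, CAR (Nr1i3) by 0.17, Ppara by 0.061, Ahr by 0.032 and Hnf4a by -0.074. The thyroid hormone receptor genes Thra and Thrb differed by 0.048 and 0.038. Among 17 tested P450 genes outside families 1 to 4 the median was 0.017, with 0 higher and 2 lower, Ptgis (prostacyclin synthase) at -0.35 and Cyp27a1 (sterol 27-hydroxylase) at -0.36. Cyp7a1, the rate-limiting enzyme of bile acid synthesis, differed by -0.29 (limma adjusted p = 0.911).

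Some other genes listed as targets of the same receptors passed the test without control 616, and the part of these receptors was not tested. Among 13 tested CAR and PXR targets outside the P450 genes, with a median of 0.15, 4 were higher and 1 lower at an unadjusted p below 0.05, where 3.43% of all probes were higher and 3.92% lower. The glutathione transferases Gstm1 and Gstm3, which conjugate reactive metabolites, rose by 1.38 and 1.14 on the log2 scale (limma adjusted p = 0.0200 and 0.0126), where the adjusted p with all arrays was 0.0563 and 0.0593. Their values did not overlap between groups. Gsta2 and Abcc3, a transferase and an efflux pump, differed by 0.73 (limma adjusted p = 0.178) and 0.70 (adjusted p = 0.101), and the sulfotransferase Sult1d1 by -0.40. Of 3 tested targets of the aryl hydrocarbon receptor, Nqo1, a quinone reductase, rose by 0.95 (limma adjusted p = 0.00884, and 0.0593 with all arrays), and Tiparp differed by -0.32, around a median of -0.046. Of 20 PPARα targets, 4 were higher and 1 lower at an unadjusted p below 0.05, against the same shares of all probes, with a median of 0.11. Acot3, an acyl-CoA thioesterase, differed by 0.79 (limma adjusted p = 0.101).

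Markers of liver zones and of other cells were set beside these results, without control 616, where 3.43% of all probes were higher and 3.92% lower at an unadjusted p below 0.05. The median difference was 0.16 over 9 pericentral markers, with Oat at 0.75 (limma adjusted p = 0.156) and Axin2 at -0.32 the genes at an unadjusted p below 0.05. Over 7 periportal markers it was 0.13, with Hal and Gls2 higher (0.27 and 0.32) and Sult5a1 lower (-0.30) at that p. For 12 hepatocyte markers it was 0.28, with 0 at that p. Medians of erythroid (7 tested), biliary (7), endothelial (8), macrophage (7) and skeletal muscle (8) markers lay between -0.14 and 0.0034, with 1 erythroid marker higher, and 1 endothelial and 2 muscle markers lower, at that p. Pancreas markers had a median of -1.79, with 15 of 17 lower at that p. Their part in the P450 results was not tested beyond the fits without controls 832, 522 and 616.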

How the data were processed

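Liver RNA and a common reference RNA were hybridised to 2-colour Agilent 44K arrays, 5 control and 5 hypothyroid, and the deposited files hold the scanner intensity of both channels per spot, made by the authors with Feature Extraction 10.1.1.1. Median signals were background-corrected with normexp (offset 50), normalised within each array by loess (span 0.2) and turned into log2 ratios of liver over reference from the deposited intensities, with control spots and outlier spots left out and replicate spots averaged. Channels of slide 141 were exchanged because its ratios had the reverse sign, and the dyes of that slide are otherwise unexplained. A probe was tested where its liver signal exceeded, by 3 SDs, the mean of the negative control spots (both after trimming 5%) on at least 4 of 5 arrays of a group. Groups came from the labels. limma 3.58.1 (lmFit, eBayes) in R 4.3.3 compared hypothyroid with control over all 32057 probes kept, with Benjamini-Hochberg adjustment and a threshold of 0.05. It stands in for the MAANOVA test of the study's methods, which was run as an alternative in the form of an Fs statistic. The fits were tested on simulated data.

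Probes were named through their accessions and RefSeq tables, and probe sequences were not used here. Promoter sequences are those of RefSeq on GRCm38.p6, whereas the array grid uses mm8, so no array coordinates are given. Genes named in the text were those with an adjusted p below 0.05, the 12 P450 genes with the smallest p with all arrays and without control 616, a list of 21 well-known P450 genes (median difference 0.085 over 20 tested, without control 616) and genes whose probes differ in direction, and other genes are named where a list or subfamily is described. The 2 tested P450 targets of the aryl hydrocarbon receptor had a median of 0.0046, and the 3 of PPARα 0.11. The members and lists were chosen with earlier results of these data known. Alternatives changed the background correction, normalisation, filter, slide handling, dye orientation, probe averaging, test and arrays used. Quantitative PCR samples of the series were not used here. pandas 2.3.3 and matplotlib 3.10.9 were used for sequences and figures.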

Additional observations from a re-analysis of the deposited data

Results flagged for a closer look

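One array lay far from the other 4 of its group in 12 control groups, measured by the gap to its nearest neighbour divided by the range of the group, and the array was control 616 each time. It was the lowest in Cyp2a5 (0.851), Cyp2c29 (0.839), Cyp2c37 (0.814), Cyp2c40 (0.877), Cyp2e1 (0.786), Cyp2f2 (0.837), Cyp2j5 (0.735), Cyp3a16 (0.857), Cyp3a25 (0.817), Cyp4a10 (0.743) and Cyp4f14 (0.723), where this quotient follows each gene. For Cyp2e1 its ratio was 1.94 and the nearest control had 4.26. It was the highest in Cyp4a12a (0.845), at 0.81 beside 0.38. In the hypothyroid group, animal 723 was the highest in Cyp2c23 (0.724), at 5.66 beside 5.50, a small gap among values that lay close together. In all 13 of 64 groups of 5 were marked in this way (20.3%), and 12 of these held control 616. Chance marks about 5% of independent groups. These groups are probes on the same arrays, so the 2 shares cannot be set against each other. By channel, control 616 was the lowest of 10 arrays at 47 of 68 P450 probes in the liver channel, with a median shift of -0.93 from the other controls, and the highest at 28 in the reference channel, with a median shift of 0.13. What set this array apart was not tested.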

How the results depend on the processing

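Across 31 alternatives, the count of P450 probes at an adjusted p below 0.05 was 0 in all but one, the liver channel alone without control 616, where it was 1 (Cyp2f2). The median difference was above 0 throughout, 0.33 to 0.54 over the other planned settings, 0.095 (without control 616) to 0.46 with each array left out in turn, and 0.059 to 0.20 over the settings without control 616 that were added after seeing the data. Over all probes the number called ran from 0 to 53, beside 2 with all arrays, reaching 14 with slide as a random block and 53 without background subtraction and without control 616. For Cyp2c55 the adjusted p ran from 0.0844 (slide as a random block) to 1.00 over the limma fits, and was 0.0824 by the Fs test. Of 32 named genes or probes, 14 kept their direction in every setting, Cyp2c55, Cyp2c23, Cyp2j9 and Cyp3a11 among them, and the others had the values below where the direction turned. Settings that leave out control 616 together with another change, leave out the 3 controls with high pancreas markers or use the liver channel alone were chosen after seeing the data. With scanner processed signals, the values were 0.26 (Cyp2a4), 0.51 (Cyp2a5), 0.27 (Cyp2r1), 0.12 (Cyp4b1) and 0.20 (Cyp3a44, dimmer probe), and with median centring in place of loess, the values were 0.048 (Cyp2a4), 0.069 (Cyp2a5), 0.13 (Cyp2r1), 0.10 (Cyp4a12a) and 0.18 (Cyp4b1), and with slide as a fixed block, the value was 0.012 (Cyp2a5). With channels as labelled on every array, the values were 0.0058 (Cyp4a12a) and 0.045 (Cyp4b1), and without both arrays of slide 141, the value was 0.0071 (Cyp4b1), and with probes of a gene averaged, the value was -0.22 (Cyp3a44). Without control 616 and with scanner processed signals, the values were 0.079 (Cyp2a4), 0.12 (Cyp2a5), -0.098 (Cyp2f2), 0.16 (Cyp2r1), 0.055 (Cyp4a12a), 0.070 (Cyp4b1) and 0.022 (Cyp3a44, dimmer probe), and without control 616 and with median centring, the values were 0.029 (Cyp1b1), -0.18 (Cyp2f2), 0.19 (Cyp2r1), 0.14 (Cyp4a12a) and 0.098 (Cyp4b1), and without control 616 and with slide as a fixed block, the values were -0.017 (Cyp1a2), 0.038 (Cyp1b1), -0.18 (Cyp2f2), -0.010 (Cyp2j5), 0.070 (Cyp2r1), -0.065 (Cyp3a13), -0.050 (Cyp3a16) and -0.0090 (Cyp4a10). Without control 616 and with no background subtraction, the values were 0.046 (Cyp1b1), -0.20 (Cyp2f2), 0.11 (Cyp2r1), -0.025 (Cyp3a16) and 0.065 (Cyp4a12a), and without control 616 and slide 141, the values were -0.21 (Cyp2f2), 0.16 (Cyp2r1), -0.042 (Cyp3a16), 0.10 (Cyp4a12a) and 0.043 (Cyp4b1), and in the liver channel alone, the values were -0.19 (Cyp2c70), -0.89 (Cyp2f2), -0.12 (Cyp2j5), -0.018 (Cyp3a13), -0.039 (Cyp3a25) and 0.14 (Cyp4a12a). Without control 616 and with liver channel alone, the values were -0.19 (Cyp1a2), -0.31 (Cyp2c70), -1.07 (Cyp2f2), -0.19 (Cyp2j5), 0.16 (Cyp2r1), -0.059 (Cyp3a13), -0.15 (Cyp3a16), -0.10 (Cyp3a44) and 0.23 (Cyp4a12a), and in the liver channel alone, scanner processed signal scaled at the 75th percentile, the values were -0.11 (Cyp2c40), -0.36 (Cyp2c70), -0.00085 (Cyp2e1), -0.99 (Cyp2f2), -0.20 (Cyp2j5), -0.071 (Cyp3a13), -0.053 (Cyp3a16), -0.14 (Cyp3a25) and 0.28 (Cyp4a12a), and without control 616 and with liver channel alone, scanner processed signal scaled at the 75th percentile, the values were -0.17 (Cyp1a2), 0.057 (Cyp1b1), -0.37 (Cyp2c70), -0.013 (Cyp2e1), -1.09 (Cyp2f2), -0.21 (Cyp2j5), 0.068 (Cyp2r1), -0.076 (Cyp3a13), -0.24 (Cyp3a16), -0.12 (Cyp3a44) and 0.38 (Cyp4a12a). Without controls 832, 522 and 616, the values were -0.21 (Cyp2f2), 0.31 (Cyp2r1), 0.034 (Cyp4a12a) and 0.053 (Cyp4b1), and without controls 832, 522 and 616, in the liver channel alone, the values were -0.099 (Cyp1a2), -0.29 (Cyp2c70), -1.15 (Cyp2f2), -0.30 (Cyp2j5), 0.14 (Cyp2r1), -0.080 (Cyp3a16), -0.0051 (Cyp3a44) and 0.23 (Cyp4a12a). With each array left out in turn the ranges of those that turned were Cyp2a5 -0.40 to 0.00046, Cyp2f2 -0.19 to 0.23, Cyp2r1 -0.20 to 0.14, Cyp3a16 -0.038 to 0.81, Cyp4a12a -0.064 to 0.066 and Cyp4b1 -0.15 to 0.041. The cause of these reversals was not tested. Arrays could be compared within slides, and with slide as a fixed block 0 P450 probes were called, the smallest adjusted p being 0.698. By replicate number no paired analysis was possible because the labels of the control and hypothyroid arrays share none. Depth was not a limit by saturation, with 0 tested P450 probes saturated, while the reference signal was well above background on all 10 arrays for 57 of 70 tested probes.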
